A study of Mus musculus with 9 samples.

Results

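The lysyl oxidase family holds 5 enzymes, Lox, Loxl1, Loxl2, Loxl3 and Loxl4, and all 5 were found by Entrez ID among the 24594 genes counted in BG2 cells with and without Sox10. BG2 is a cell line from an endpoint mammary tumour of an MMTV-NIC mouse, in which the MMTV promoter drives Neu and Cre from 1 transcript in mammary epithelium. The 9 libraries of stranded, polyA-enriched RNA formed 3 groups of 3 technical replicates. The control was the wild-type BG2 population, sequenced in bulk, and its library names hold NTC. Clone 1 and clone 2 were each a single Sox10 knockout clone, expanded from a CRISPR-edited population with guides against exon 3 of the Sox10 reading frame. All groups carry the Neu and Cre transgene, and no group was a wild-type clone, so the knockout and the choice of a single cell cannot be told apart here. The family was chosen by the measured counts of these libraries, in which Lox was far higher in both clones. The members' differences between clones and control are therefore a description, and their calls against the control are counted but not read as tests.

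Lysyl oxidases are copper-dependent amine oxidases that work mostly outside the cell. They oxidise lysine and hydroxylysine side chains of collagen and elastin to aldehydes, which then condense into the covalent cross-links that stiffen the matrix. Lox and Loxl1 are secreted as proenzymes and cut by Bmp1 and related proteases, while Loxl2, Loxl3 and Loxl4 carry scavenger receptor domains in front of the catalytic domain. In breast tumours the family is known mainly for matrix stiffening and spread. Copper is held by histidines of a short motif that every member has once in its coding sequence. The 63 coding bases around it are shown for Loxl1 to Loxl4, as a part of the catalytic domain that all 5 genes share. The bases are from GENCODE transcripts of build GRCm38, read 5′ to 3′ on the gene's own strand, and capitals mark the 4 histidine codons of the motif.
Loxl1: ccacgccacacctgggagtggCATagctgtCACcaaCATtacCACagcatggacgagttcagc
Loxl2: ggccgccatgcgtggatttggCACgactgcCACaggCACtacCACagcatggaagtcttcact
Loxl3: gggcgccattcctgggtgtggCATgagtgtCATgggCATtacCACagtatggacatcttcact
Loxl4: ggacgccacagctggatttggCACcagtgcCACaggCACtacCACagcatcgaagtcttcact
These bases lie at chr9:58293702-58294393 on the minus strand for Loxl1 and at chr14:69682304-69689055 on the plus strand for Loxl2. Those of Loxl3 lie at chr6:83049983-83050143 on the plus strand, and those of Loxl4 at chr19:42598789-42599911 on the minus strand. An intron interrupts the stretch after base 35 in all 5 genes, Lox included. Its length differs, from 98 bases in Loxl3 to 6689 bases in Loxl2, with 629 bases in Loxl1, 1060 in Loxl4 and 1661 in Lox. Loxl2 and Loxl4 differ at 8 of the 63 bases, Loxl2 and Loxl3 at 14, and Loxl3 and Loxl4 at 16. Lox and Loxl1 differ at 6 bases, and Lox differs from Loxl2, Loxl3 and Loxl4 at 21 to 24.

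The coding sequences show the same split. Lox has 411 codons and Loxl1 has 607, and in both the motif is followed by 121 codons. Loxl2, Loxl3 and Loxl4 have 776, 754 and 758 codons, with 144, 142 and 141 after the motif. Over the last 600 coding bases, identity was 72.7% between Lox and Loxl1 and 70.9% to 73.3% within the group of Loxl2, Loxl3 and Loxl4. Between those groups it was 65.0% to 68.5%. No pair of members shared an exact run of more than 32 bases, the length shared by Lox and Loxl1, and the shortest longest run was the 11 bases of Lox and Loxl4.

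The genes lie on 5 different chromosomes of GRCm38. Lox (Entrez ID 16948) is at chr18:52516060-52529867 on the minus strand and Loxl1 (16949) at chr9:58287723-58313212 on the minus strand. Loxl2 (94352) is at chr14:69608692-69695834 on the plus strand, Loxl3 (16950) at chr6:83034205-83052566 on the plus strand and Loxl4 (67573) at chr19:42592279-42612806 on the minus strand. Exons of Loxl3 overlap exons of Htra2, a mitochondrial protease gene on the opposite strand, over 535 bases. The overlaps of Lox and Loxl2 with antisense genes were 30 and 301 bases, and Loxl2 also overlaps a microRNA gene over 7 bases. The strand setting of the counting was not given in the sources used here, and without strand the reads of such overlaps cannot be assigned to either gene.

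Each library held 65805296 to 83282841 counts. Sox10, the targeted gene, had 64135 counts over the 3 control libraries, 6 over those of clone 1 and 4 over those of clone 2. Of 13928 genes tested, 76.5% differed between clone 1 and the control, 74.4% between clone 2 and the control and 57.6% between the clones, so single calls are common in these data. In each group, the first replicate lay away from the other two. The replicates are technical, and p-values therefore measure only the spread between these libraries. All 7 epithelial markers were lower in both clones, and their summed level was 6222 to 7446 CPM (counts relative to library size, scaled by TMM) in the control, 1109 to 1260 in clone 1 and 1362 to 1543 in clone 2. Epithelial Krt8 was still at 666 ± 39.6 CPM and 787 ± 54.0 CPM (SD, n = 3), while Epcam was at 7 counts in clone 1 and 0 in clone 2. The summed level of 8 fibroblast markers was 30.3 to 35.9 CPM for the control, 217 to 223 for clone 1 and 136 to 150 for clone 2. Of these 8, 5 were tested and 4 were higher in both clones, Lum and Thy1 had 0 counts in every library, and Dcn had 2, 30 and 0 counts over the 3 groups. Of 8 immune markers, 3 were tested, and their summed level was 7.32 to 12.4 CPM for the control, 9.60 to 11.4 for clone 1 and 43.6 to 46 for clone 2. Ptprc, shared by white blood cells, had 8, 0 and 0 counts over the groups. The macrophage gene Lyz2 had 6, 59 and 1501 counts, and Cd68 was at 10.1 ± 2.78, 9.80 ± 0.993 and 38.6 ± 0.988 CPM. Csf1r, the other tested gene, was lower in both clones, by log2 differences of -1.01 and -1.42, and Itgam had 12, 8 and 11 counts. Of 5 endothelial markers, Pecam1 had 2, 6 and 6 counts, Cdh5 had 2, 4 and 34, and Kdr, the only one tested, had 4, 3448 and 114. The part of these markers in the members' levels was not tested. In bulk libraries, fewer cells of a type and less RNA per cell cannot be told apart.

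Lox, the founding member of the family, went from a minor transcript to 1 of the most abundant in both clones. The control libraries held 12.3, 12.7 and 11.4 CPM, from 853, 940 and 920 counts. Clone 1 held 3426, 3070.3 and 3101 CPM, and clone 2 held 4593, 3836 and 4272 CPM. The groups did not overlap: the lowest clone 1 library was 242-fold above the highest control library, and the lowest clone 2 library 302-fold. In the fit across all genes, Lox was higher by 8.04 ± 0.11 (SE) on the log2 scale in clone 1, a 264-fold difference, and by 8.45 ± 0.11 in clone 2, a 349-fold difference. Ordered by fold change, it stood 96th highest in clone 1 and 48th highest in clone 2 among the 13928 genes tested. Both clones are compared with the same control libraries.

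Measured per kilobase of exon, the level of Lox in the control ranked 9110th of 15508 genes with counts. It ranked 46th of 14953 in clone 1 and 35th of 14975 in clone 2. Clone 2 held more Lox than clone 1 in every library, by 0.40 ± 0.08 on the log2 scale (adjusted p = 9.2e-04, edgeR's quasi-likelihood test with Benjamini-Hochberg adjustment). That difference is 1.32-fold, small beside the distance of both clones from the control.

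Loxl1, the other member with a propeptide and an enzyme of elastic fibres, was a scarce transcript and the only member to go down in a clone. The control libraries held 41, 50 and 49 counts (0.592, 0.676 and 0.606 CPM). Clone 1 held 10, 5 and 4 counts (0.152, 0.0656 and 0.0573 CPM), and clone 2 held 81, 70 and 83 counts (0.972, 0.927 and 1.06 CPM). Clone 1 was below the control in every library and clone 2 above it, with no overlap between any of the 3 groups.

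Against the control, Loxl1 was lower in clone 1 by a log2 difference of -2.77 ± 0.34 (SE), and the summed counts gave a control level 6.97 times that of clone 1 (95% counting interval 4.30 to 11.9). Its level in clone 2 was 0.66 ± 0.25 higher on the log2 scale, a count ratio of 1.58 (1.28 to 1.96). With any 1 of the 3 control or 3 clone 2 libraries left out, the value for clone 2 was 0.60 to 0.71. The clones themselves differed by 3.43 ± 0.33 on the log2 scale, with clone 2 higher by a count ratio of 11 (6.89 to 18.6). That was the only member whose difference between clones also passed edgeR's test against a 2-fold change (adjusted p = 9.28e-05, glmTreat), which 4.67% of all tested genes passed in that direction, 3.84% in the other and 8.52% in either. These intervals cover counting error only, as reads without molecular identifiers can repeat 1 molecule.

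Loxl2, which cross-links collagen IV and fibrillar collagen and is also found in the nucleus, was nearly absent from the control. The control libraries held 2, 6 and 3 counts, clone 1 held 80, 90 and 53, and clone 2 held 167, 132 and 133. Every clone 2 library was above every clone 1 library, and every clone 1 library above the control. In CPM the group means were 0.0490 ± 0.0281, 1.05 ± 0.253 and 1.82 ± 0.164 (SD, n = 3). The log2 difference was 4.38 ± 0.37 in clone 1 and 5.16 ± 0.35 in clone 2, with count ratios of 21.4 (95% counting interval 11.8 to 43.6) and 37.1 (20.5 to 74.9). No control library reached the level of 0.133 CPM that the filter on low counts asked for, so Loxl2 was tested only because it was higher in the clones. Clone 2 exceeded clone 1 by 0.79 ± 0.23 (adjusted p = 0.0127, edgeR's quasi-likelihood test), which became 0.60 (adjusted p = 0.0510) without the third library of clone 1.

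Loxl3, whose substrates include collagen and fibronectin, stood between these extremes. The control libraries held 14.1, 14.4 and 16.3 CPM. Clone 1 held 47.8, 56.0 and 47.8 CPM, and clone 2 held 83.6, 95.7 and 92.5 CPM. The groups formed 3 separate steps, with clone 2 highest. Loxl3 was higher by 1.76 ± 0.09 on the log2 scale in clone 1 (3.39-fold) and by 2.60 ± 0.09 in clone 2 (6.07-fold). The step from clone 1 to clone 2 was 0.84 ± 0.08 (adjusted p = 6.69e-06, edgeR's quasi-likelihood test). Htra2, the gene whose exons it overlaps, had log2 differences of -1.27 and -0.37, the opposite direction.

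Loxl4, the most abundant member in the control, differed least from it. The control libraries held 61.1, 68.2 and 66.6 CPM, clone 1 held 78.0, 82.1 and 82.1 CPM, and clone 2 held 65.4, 71.0 and 68.9 CPM. Clone 1 was above the control in every library, while clone 2 overlapped the control. The log2 difference was 0.31 ± 0.06 in clone 1, or 1.24-fold, and 0.07 ± 0.06 in clone 2. Clone 2 was below clone 1 by -0.24 ± 0.06 on the log2 scale (adjusted p = 0.00394, edgeR's quasi-likelihood test).

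**Figure D1:**
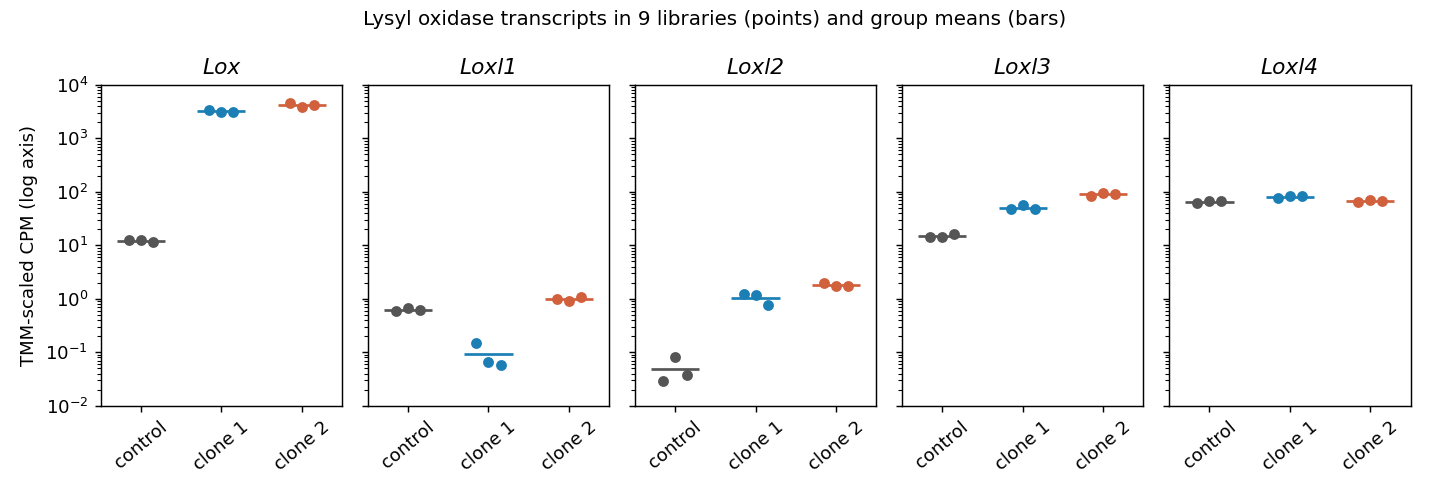
Levels of the 5 lysyl oxidase transcripts in TMM-scaled CPM on a log axis, with a point for each of the 9 libraries and a bar at each group's mean. Lox climbs from a mean of 12.1 CPM to 3199 and 4234 CPM, Loxl1 lies below the control in clone 1 and above it in clone 2, and Loxl4 stays between 61.1 and 82.1 CPM throughout.

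In counts of calls at an adjusted p under 0.05, Lox, Loxl2 and Loxl3 were higher in both clones, 3 of the 5 members, beside 28.7% of all tested genes. No member was lower in both clones (all genes 29.4%), and Loxl1 was called in opposite directions (all genes 4.79%), though its call in clone 2 was lost under 10 of 15 other settings. In clone 1 alone, 4 members were called higher (all genes 37.9%) and 1 lower (all genes 38.6%). In clone 2, 4 were called higher (all genes 37.3%) and Loxl4 was not called. That count became 3 with the replicate number as a block, in DESeq2, and without any 1 control or clone 2 library, since Loxl1 (0.66 with the block and 0.64 in DESeq2) was then not called. Because the members were chosen with these contrasts known, nothing is read from those counts. Between the clones, 4 members were higher in clone 2 (all genes 30.1%) and Loxl4 was lower (all genes 27.5%). The median log2 difference over all tested genes was 0.0025 in clone 1 and -0.0027 in clone 2.

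**Figure D2:**
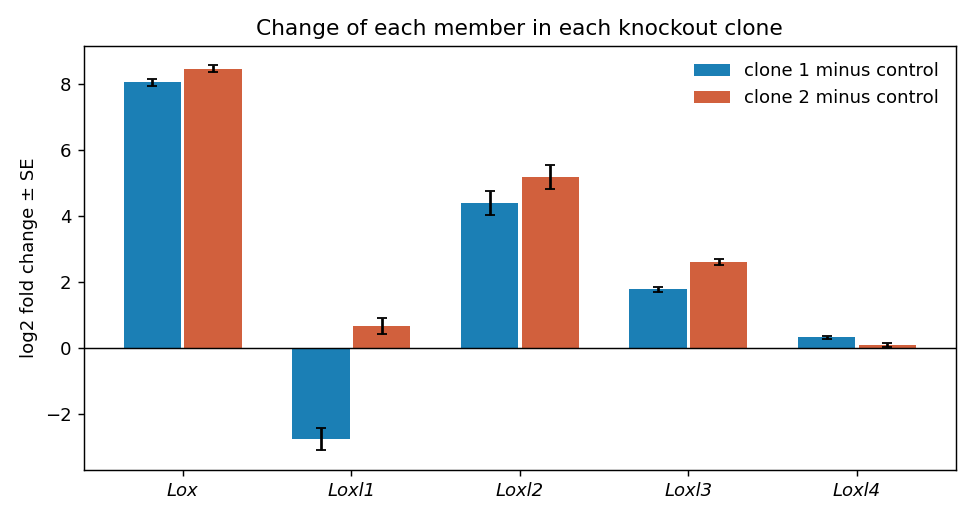
Log2 fold change of each member in clone 1 and clone 2 against the control, with bars for the fitted value and whiskers for its standard error. Lox has the highest bars, at 8.04 and 8.45, and Loxl1 is the member whose bars point in opposite directions.

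The order of the members turned over between the control and the clones. Scaled to exon length, the control level was 17.5 ± 0.989 CPM per kilobase for Loxl4, 3.64 ± 0.284 for Loxl3 and 2.54 ± 0.144 for Lox (SD, n = 3). Loxl1 followed at 0.189 ± 0.0136 and Loxl2 at 0.00907 ± 0.00520, and no neighbours in this order overlapped. In clone 1 the order per kilobase was Lox at 669.5 ± 41.2, Loxl4 at 21.6 ± 0.639, Loxl3 at 12.3 ± 1.16, Loxl2 at 0.194 ± 0.0468 and Loxl1 at 0.0278 ± 0.0158, again with no overlap. In clone 2 Lox was at 886 ± 79.5 CPM per kilobase, and Loxl3 at 22.1 ± 1.53 lay above Loxl4 at 18.3 ± 0.746. The order of Loxl3 and Loxl4 in clone 2 depends on the length used, here all annotated exon bases, 4098 and 3741. The Loxl4 transcript whose coding bases are shown above has 2617 bases, and with that length Loxl4 would lie above Loxl3. Loxl2 at 0.336 ± 0.0304 and Loxl1 at 0.299 ± 0.0206 overlapped in clone 2 and could not be ordered.

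In the control the summed level of the family was 93.0 ± 4.23 CPM, against 3331 ± 192 in clone 1 and 4396 ± 372 in clone 2. Per kilobase, Lox made up 10.7% ± 0.839 of the family in the control, 95.1% ± 0.461 in clone 1 and 95.5% ± 0.610 in clone 2 (SD, n = 3). Loxl4 went the other way as a share, from 73.2% to 3.08% and 1.99%, although its own level was not lower in either clone. Loxl3 accounted for 15.3%, 1.76% and 2.40%. These shares rest on the same exon lengths.

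**Figure D3:**
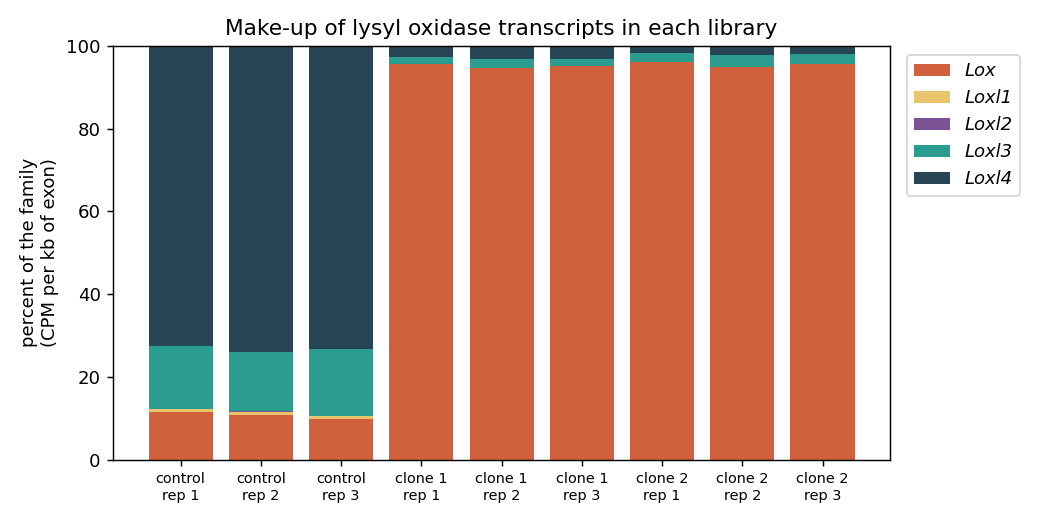
Percent of the family's summed level, in CPM per kilobase of exon, that each member holds in each of the 9 libraries. Loxl4 fills most of the 3 control bars, with Lox at 9.77% to 11.4%, and Lox fills at least 94.7% of the 6 clone bars.

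Genes that act on or with the enzymes were taken from 11 lists, chosen with earlier results of these data known. Of all tested genes, 28.7% were higher in both clones, 29.4% lower in both and 4.79% opposite, and each list's counts stand beside these shares. The first holds the proteases and helpers that process the propeptides of Lox and of procollagen. Of its 5 tested genes, 3 were higher and 2 lower in both clones (median log2 difference 1.37 and 1.83). Bmp1, the protease that releases active Lox, was lower, at 184 ± 12 CPM in the control, 139 ± 1.68 in clone 1 and 151 ± 8.94 in clone 2, with log2 differences of -0.41 ± 0.06 and -0.29 ± 0.06 (adjusted p = 6.4e-05 and 9.8e-04, edgeR's quasi-likelihood test). Its relative Tll1 had 0 counts in all libraries. Pcolce, which enhances Bmp1 on procollagen, was higher by 3.73 ± 0.09 and 3.53 ± 0.09, and Pcolce2, its homologue, by 1.37 ± 0.04 and 1.83 ± 0.04. Adamts2, a procollagen N-proteinase, was higher by 6.49 ± 0.10 and 5.68 ± 0.10, whereas Adamts14, of the same class, had 229 counts in the control and 2 in each clone.

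Copper reaches secreted enzymes through Atp7a, the pump of the secretory pathway. It was higher by 1.88 ± 0.12 in clone 1 and 1.60 ± 0.12 in clone 2, with 13.9 ± 1.15 CPM in the control, 51.1 ± 4.44 in clone 1 and 42.0 ± 6.63 in clone 2 (adjusted p = 4.3e-08 and 1.8e-07, edgeR's quasi-likelihood test). Slc31a1, the main copper importer, did not pass the test in either clone (0.03 ± 0.06 and -0.13 ± 0.06). Its value in clone 2 did pass with RLE size factors, a filter at 1 CPM in 3 libraries, the replicate block, DESeq2 or control replicate 3 left out. It was then -0.19 to -0.13 (adjusted p 0.0151 to 0.0467, edgeR's quasi-likelihood test or DESeq2). The chaperones Atox1, which hands copper to Atp7a, and Ccs, which loads superoxide dismutase, were lower by log2 differences of -0.49 and -0.78 in clone 1 and of -0.31 and -0.59 in clone 2. The metallothioneins Mt1 and Mt2, which bind copper and zinc, were higher by 4.03 and 4.42 in clone 1 and by 2.42 and 3.16 in clone 2. Over the 13 tested genes of copper handling, 6 were higher and 3 lower in both clones. The list's median was 0.11 in clone 1 and 0.44 in clone 2.

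Fibrillar collagens, the main substrates of Lox, were mostly higher: 7 of 9 tested genes in both clones (all genes 28.7%) and 1 lower in both (all genes 29.4%). The median log2 difference was 3.73 in clone 1. In clone 2 it was 3.49, or 1.91 with Col3a1, at 0 counts in the control, set to its lower bound. Col5a1, a chain that starts thin fibrils, went from 57.1 ± 4.01 CPM to 1204 ± 32.7 in clone 1 and 747 ± 84.8 in clone 2. Col11a1, its relative in cartilage fibrils, was higher by 4.28 ± 0.13 and 6.28 ± 0.13 on the log2 scale. Col1a1 and Col1a2, the chains of collagen I, were higher by 1.02 and 1.31 in clone 1 and by 0.93 and 1.45 in clone 2, but reached only 1.69 to 2.95 CPM. Col11a2 was the gene of the list that was lower in both (-1.76 and -1.18). Col3a1 was at least 76.8-fold higher in clone 1, with 218 counts, and had 6 counts in clone 2. The summed level of the 11 genes per kilobase was 8.07 ± 0.491 CPM in the control, 153 ± 3.25 in clone 1 and 117 ± 10.1 in clone 2 (SD, n = 3).

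Elastic fibre genes differed in both directions. Of 10 tested, 6 were higher and 1 was lower in both clones, and 2 went in opposite directions. Eln, which encodes elastin, the other substrate of the family, was too low to test, with 8, 2 and 1 counts over the 3 groups. Efemp2, also called fibulin 4, which brings Lox to elastin, was higher by 1.03 ± 0.07 in clone 1 and 1.16 ± 0.07 in clone 2, from 128 ± 11.2 CPM (adjusted p = 8.1e-08 and 3.0e-08, edgeR's quasi-likelihood test). Fbln5, which binds Loxl1 and elastin, went from 0.626 ± 0.256 CPM to 2.36 ± 0.0945 in clone 1 and 0.246 ± 0.121 in clone 2, log2 differences of 1.91 and -1.34. It thus ran against Loxl1, which was lower in clone 1 and higher in clone 2. Ltbp4, a binder of latent TGF-beta in elastic fibres, was also opposite, at 0.42 and -2.34, and its value in clone 1 became 0.35 (adjusted p = 0.057, edgeR's quasi-likelihood test) without the second library of clone 1. The fibrillin gene Fbn1 was higher by 5.12 ± 0.41 and 4.64 ± 0.42, while Ltbp2, the one gene lower in both clones, fell from 312 ± 13.9 CPM to 45.1 ± 2.79 and 13.5 ± 0.232.

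The collagen IV network of basement membrane, whose cross-linking involves Loxl2 and the peroxidase Pxdn, was not higher in both clones as most fibrillar collagens were. Of 7 tested genes, 1 was higher and 3 were lower in both clones, with medians of -0.60 in clone 1 and 0.54 in clone 2. The one that was higher was Pxdn (1.32 ± 0.06 and 0.72 ± 0.06). Col4a1 was lower, at 700.2 ± 41.5 CPM in the control, 311 ± 7.83 in clone 1 and 525 ± 40.6 in clone 2. Col4a3 had 526, 6 and 4 counts over the 3 groups, and Col4a4 had 1476, 21 and 70. Col4a5 was lower in clone 1 by -0.57 ± 0.06 and higher in clone 2 by 0.54 ± 0.06. Col4a2 was at 605 ± 48.2 CPM in the control, 654 ± 25.6 in clone 1 and 1250 ± 141 in clone 2. It was called higher only in clone 2 (1.05 ± 0.08). The summed level of the 7 genes per kilobase was 231 ± 15.3 CPM in the control, 186 ± 5.53 in clone 1 and 319 ± 29.4 in clone 2 (SD, n = 3).

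Lysyl hydroxylases make the hydroxylysines from which the more stable cross-links form, and all 3 were higher in both clones. Plod2, the enzyme of telopeptide lysines, went from 0.657 ± 0.170 CPM to 24.8 ± 3.90 in clone 1 and 45.5 ± 8.28 in clone 2, log2 differences of 5.22 ± 0.21 and 6.10 ± 0.21 (adjusted p = 8.5e-10 and 2.5e-10, edgeR's quasi-likelihood test). Plod1 was higher by 0.87 and 0.70 and Plod3 by 1.10 and 0.69. The wider list of collagen hydroxylation and folding had 11 of 15 tested genes higher and 3 lower in both clones, with medians of 1.10 and 0.79. Prolyl 4-hydroxylase subunit P4ha3 was higher by 5.13 ± 0.10 and 6.12 ± 0.10. The 3 that were lower were P3h2, P3h3 and P3h4, which carry the name of the prolyl 3-hydroxylases. P3h1, of the same name, went the other way and was higher by 2.33 ± 0.12 and 1.77 ± 0.12. P3h4 had 3276 counts in the control, 0 in clone 1 and 3 in clone 2, and P3h3 had 160, 0 and 0.

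Of 4 proteins reported to bind Lox or its substrates in the matrix, 3 were higher and 1 lower in both clones (medians 4.25 and 3.72). Fn1, encoding fibronectin, went from 88.4 ± 14.3 CPM to 3126 ± 234 in clone 1 and 1484 ± 217 in clone 2. Postn, encoding periostin, which brings Bmp1 to fibronectin, went from 6.97 ± 0.296 CPM to 99.2 ± 12.5 and 895 ± 119. Thbs1, encoding thrombospondin 1, fell from 2188 ± 109 CPM to 342 ± 5.84 and 391 ± 23.9. Fmod, encoding fibromodulin, had 2, 56 and 26 counts over the 3 groups, and its call in clone 2 was lost when any 1 of 6 libraries was left out, among them each control library (2.81 without the third, adjusted p = 0.13, edgeR's quasi-likelihood test).

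Among 6 tested genes of other amine oxidases and of transglutaminases, which cross-link by another reaction, 4 were lower in both clones and F13a1, with 4, 14 and 64 counts over the 3 groups, was called higher in clone 2. The list's medians were -1.16 and -0.89. Tgm2, a transglutaminase that joins glutamine to lysine, went from 919 ± 106 CPM to 290 ± 18.1 in clone 1 and 511 ± 23.5 in clone 2. The copper amine oxidases Aoc2 and Aoc3 were both lower, by log2 differences of -0.65 and -0.94 for Aoc2, while Aoc3 had 63, 2 and 6 counts.

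**Figure D4:**
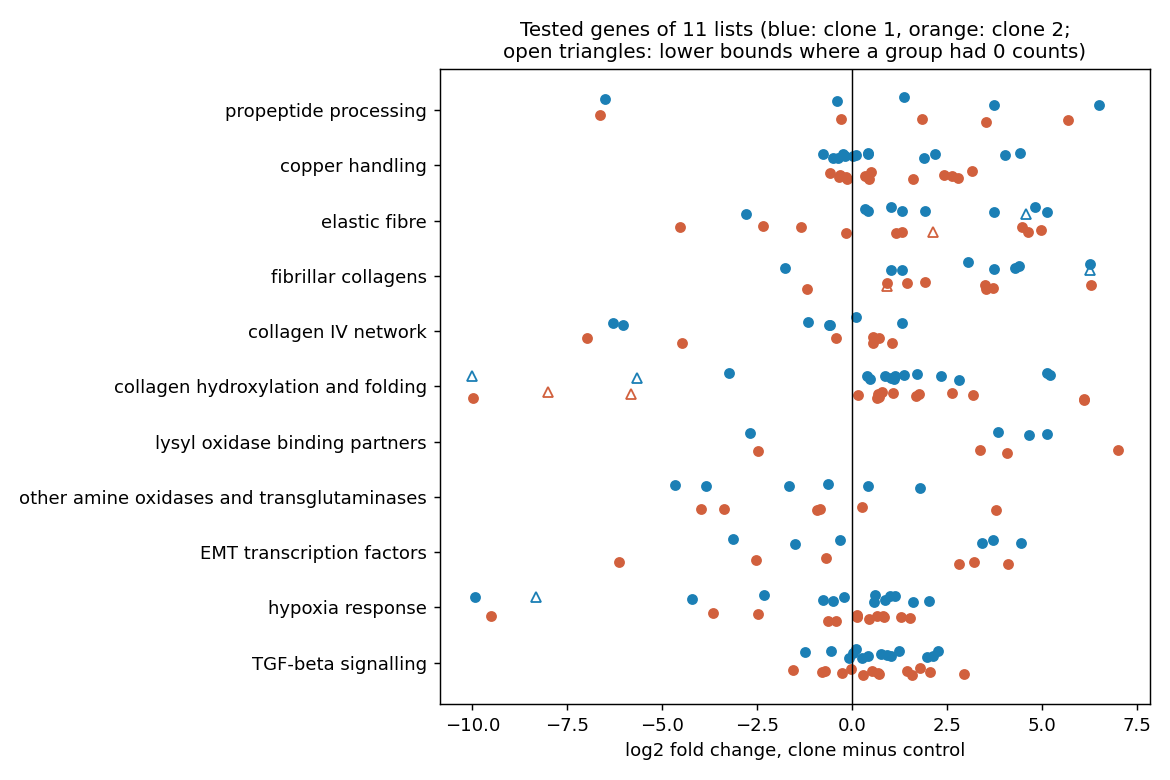
Log2 fold change against the control of each tested gene in the 11 lists, blue for clone 1 and orange for clone 2, with open triangles at lower bounds where a group had 0 counts. Fibrillar collagens lie almost all to the right of 0, with Col11a2 the exception, while amine oxidases and transglutaminases lie mostly to the left.

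Regulators known to act on Lox transcription were given by 3 further lists. Of 14 tested genes of the hypoxia response, 6 were higher and 5 lower in both clones (all genes 28.7% and 29.4%). The medians were 0.17 and 0.13. Egln3 and Adm, both induced by low oxygen, were far lower. Egln3 had 8524, 8 and 12 counts over the 3 groups, and Adm was at -4.23 and -3.66 on the log2 scale. The others lower in both clones were Car9 (-2.31 and -2.47), Slc2a1 (-0.77 and -0.65) and Vegfa (-0.50 and -0.42). Ndrg1 was higher by 1.60 and 1.30, Ankrd37 by 2.04 and 0.82 and Bnip3 by 0.99 and 1.54. The others higher in both clones were Ero1a (0.86 and 0.83), Pgk1 (0.61 and 0.44) and Arnt (1.13 and 0.66). Hif1a was higher by 0.57 ± 0.14 in clone 1 and at 0.12 ± 0.14 in clone 2, where it passed the test only with the replicate block (0.12, adjusted p = 0.0490, edgeR's quasi-likelihood test). Epas1, the second HIF alpha subunit, had 1014 counts in the control, 0 in clone 1 and 1180 in clone 2.

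Of 14 TGF-beta genes, 7 were higher and 2 lower in both clones, with medians of 0.59 and 0.60. Tgfb2, a ligand, was higher by 2.27 ± 0.07 and 2.93 ± 0.07, and Tgfbr3, a co-receptor, by 1.97 and 2.04. Smad3 and the inhibitor Smad7 were the genes lower in both, at -1.23 and -0.56 in clone 1 and -1.56 and -0.72 in clone 2. Of 6 EMT transcription factors, Snai2, Zeb1 and Zeb2 were higher and Snai1, Snai3 and Twist1 lower in both clones. Snai1, a partner reported for Loxl2 and Loxl3 in the nucleus, went from 30.4 ± 1.71 CPM to 10.8 ± 0.656 in clone 1 and 0.425 ± 0.162 in clone 2. Cdh1, the E-cadherin gene that Snai1 represses, was also lower, from 341 ± 25.4 CPM to 43.1 ± 1.83 and 16.2 ± 1.49. The fibroblast and epithelial marker sums given above also differed between both clones and the control, and their part in these levels was not tested.

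For each member, the 3 genes closest in pattern were found among 11683 genes by the root-mean-square difference of centred log2 CPM over the 9 libraries. The libraries share 3 cell populations, so these are descriptions of group levels. The pattern of Lox was closest to Acod1, an enzyme that makes itaconate (difference 0.138), Hopx (0.263) and Saa2, an acute-phase protein (0.294). Acod1 went from 1.73 ± 0.226 CPM to 428 ± 2.12 and 533 ± 34.7, and Saa2 from 0 counts to at least 427-fold and 431-fold higher. Loxl3 was nearest to the muscle kinase gene Dmpk (0.0875) and to Dysf (0.113) and Entpd4 (0.141). Loxl2 was nearest to Mfap5, a microfibril gene (0.235), Entpd4b (0.252) and Gsta3 (0.271). Loxl1 had Tnfrsf18 (0.272), Mansc1 (0.275) and Tchh (0.317), all lower in clone 1. Loxl4 was matched within 0.0312 to 0.0327 by Surf4, Tfe3 and Prmt7, genes that also differed little from the control. Entpd4 and Entpd4b are near-identical copies, so the authors' counting may have split their reads.

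Around Lox, the adjacent tested genes differed little. Srfbp1, 24127 bases away, had log2 differences of 0.07 ± 0.07 and 0.23 ± 0.07. Snx2, 646425 bases away on the other side, had 0.05 ± 0.07 and 0.08 ± 0.07. Farther out within 1 Mb, Snx24 had 0.52 and 1.06, and Ppic was lower in both clones, at bounds of -11.5 and -11.7. Next to Loxl2, on chromosome 14, Entpd4b lies 23752 bases away and was higher by 3.81 ± 0.30 and 4.26 ± 0.29, while R3hcc1, 1470 bases from the other end, had -0.12 ± 0.12 and 0.32 ± 0.12. Within 1 Mb of Loxl2, 19 of 25 tested genes were higher in each clone (all genes 37.9% in clone 1 and 37.3% in clone 2). The medians of the 25 were 0.51 and 0.58, beside medians of 0.61 and 0.47 over the 460 tested genes of that chromosome.

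The genes on either side of Loxl3 went the other way. Dok1, 710 bases from one end, went from 119 ± 10.3 CPM to 59.5 ± 4.26 in clone 1 and 90.6 ± 3.30 in clone 2, and Aup1, 1929 bases from the other, had log2 differences of -0.94 ± 0.07 and -0.34 ± 0.07. Of 36 tested genes within 1 Mb, 23 were lower and 3 higher in clone 1 (all genes 38.6% and 37.9%). In clone 2, 19 were lower and 9 higher (all genes 37.1% and 37.3%). The medians of the 36 were -0.64 and -0.24, beside -0.24 and 0.09 over the 681 tested genes of that chromosome. R3hcc1l, which ends 5 bases from Loxl4, was lower at -0.47 ± 0.07 and -0.36 ± 0.07, and Pyroxd2 on its other side was higher by 0.81 ± 0.15 and 1.47 ± 0.14. Beside Loxl1, Stoml1 had -0.35 ± 0.13 and 0.07 ± 0.13, while 4930461G14Rik on the other side was higher by 2.08 ± 0.14 and 0.89 ± 0.14.

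**Figure D5:**
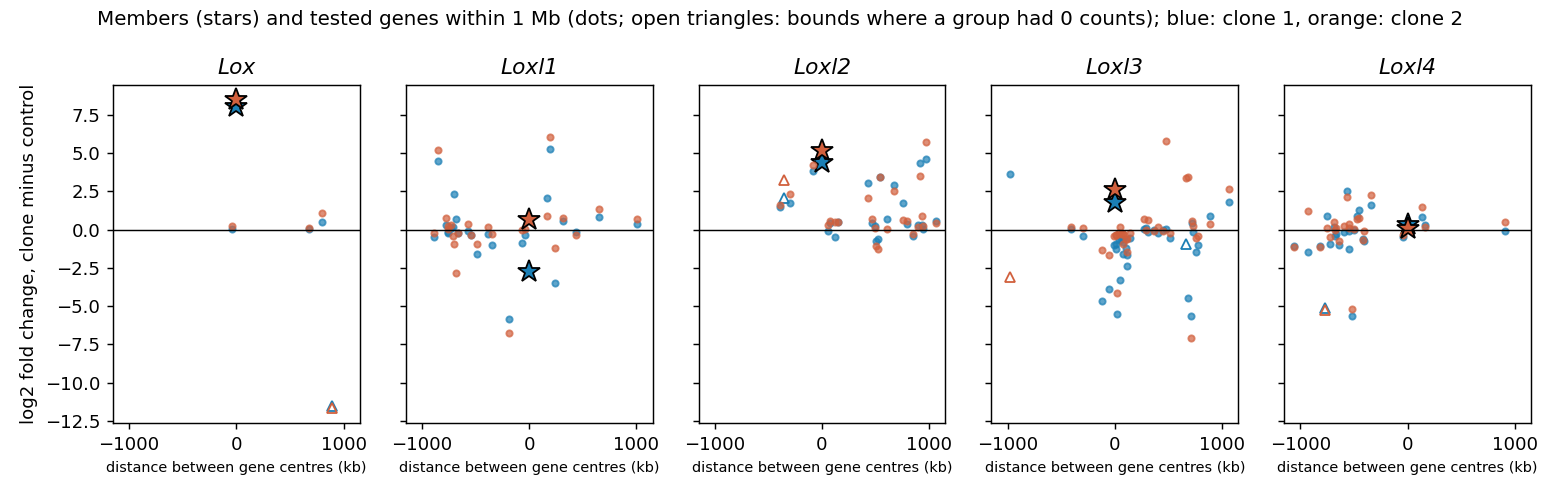
Log2 fold change of each member (star) and of the tested genes within 1 Mb (dots) against the distance between gene centres in kilobases, blue for clone 1 and orange for clone 2, with open triangles at bounds where a group had 0 counts. The star of Lox stands alone above 4 tested genes, and the stars of Loxl3 lie above most of their near neighbours.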

How the data were processed

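RNA of 9 BG2 libraries was sequenced. The authors deposited raw counts per gene, whole numbers without normalization, 1 column per library; the submitters' processing notes name fastp, Subread, DESeq2, mm10 and GRCm38. The annotation, strand setting and step at which replicates parted were not given in the sources used here. From these counts, edgeR 4.0.16 in R 4.3.3 kept 13928 genes (filterByExpr, minimum count 10), scaled them by TMM and fitted 1 quasi-likelihood model of 3 groups over all 9 libraries, with Benjamini-Hochberg adjustment over all genes and a threshold of 0.05; glmTreat tested against a log2 fold change of 1. The 24 genes without a symbol took at most 0.202% of a library. The fit was tested on simulated data. Standard errors are the absolute log2 fold change over the square root of F.

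Depth was 65805296 to 83282841 counts. Where a group had 0 counts, folds are bounds against 3 counts over its 3 libraries, 0.0127 to 0.0142 CPM; count ratios carry 95% exact intervals. Exon lengths and sequences are from GENCODE M21 and gene positions from RefSeq, both GRCm38.

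Members and lists were chosen with earlier results of these data known. Named genes were the members, 13 genes fixed by name, up to 2 per list with the largest mean change, 3 nearest in pattern to each member (at least 1 CPM in a group) and the adjacent tested genes. Another 40, among them Htra2, Pcolce, Zeb1 and Smad3, and the low marker genes were chosen after their values were seen. P3h1 and Col4a2 were also chosen after their values were seen, and are not in the counts over alternative settings. A gene that met these rules may not be reported here; counts over lists include it. Same-numbered libraries of different groups deviated together (r 0.114 to 0.501 over 11704 genes, 9 pairs). Replicate 1 stood apart, at 0.477 to 0.501 with its own number and -0.423 to -0.162 with other numbers. Libraries 2 and 3 of different groups also deviated together, at 0.0457 to 0.292, so the numbers do not pair those. A fit with the replicate number as a block was among 15 alternative settings, with other normalizations, filters, DESeq2 1.42.0 and each library left out. Another alternative, without replicate 1 of every group, was chosen after seeing the data.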

Additional observations from a re-analysis of the deposited data

Results flagged for a closer look

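The difference from the control was not the same in both clones, by more than 2-fold (edgeR's glmTreat on clone 2 minus clone 1, which 8.52% of all tested genes passed) for Loxl1 and for 19 other genes named here. The log2 differences, clone 2 minus clone 1, were 3.43 for Loxl1 and 2.99, 3.11 and 2.75 for Tnfrsf18, Mansc1 and Tchh, the genes nearest to it in pattern and chosen for that likeness. Among matrix genes they were 3.17 for Postn, 2.00 for Col11a1, -5.27 for Col3a1, -3.24 for Fbln5, -2.77 for Ltbp4 and -1.74 for Ltbp2. Mt1 had -1.61 and Mt2 -1.26, and Snai1 had -4.65 and Cdh1 -1.41. Among markers of other cells, Lyz2 had 4.50, Cd68 1.98 and Kdr -5.07. Epcam, with 7 counts in clone 1 and 0 in clone 2 (at least 2.61-fold lower), had a fitted value of -4.38 that is no bound, and its call was lost without replicate 1 of every group. P3h2 had 71 counts in clone 1 and 0 in clone 2, at least 26.5-fold lower, with a fitted value of -7.67 that is no bound. Epas1 had 0 counts in clone 1 and 1180 in clone 2, at least 352-fold higher, with a fitted value of 11.54.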

How the results depend on the processing

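Under the 15 alternative settings and the 1 chosen after seeing the data, no member with a called difference changed direction. The calls of all 5 members in clone 1 were kept. In clone 2, Loxl1 lost its call under 10 of the 15 settings that tested it. It was too low to test at a minimum of 1 CPM in 3 libraries. Where the call was lost, its value was 0.66 with the replicate block, 0.65 with no filter on low counts and 0.64 in DESeq2. It was 0.60 to 0.71 without any 1 control or clone 2 library, and 0.63 without replicate 1 of every group. Between the clones, Loxl2 lost its call only without clone 1 replicate 3. The replicate block changed no other call of a member. Of 96 other named genes, at least 1 setting changed the call of 3 for clone 1, of 7 for clone 2 and of 25 for the difference between clones, and none reversed. Over all alternatives Lox stayed at 7.99 to 8.07 in clone 1 and 8.39 to 8.48 in clone 2, and Loxl4 in clone 2 at -0.0016 to 0.10. The counts of genes called higher and lower ranged from 4777 to 5729 and 4868 to 5727 in clone 1, from 4555 to 5653 and 4803 to 5667 in clone 2, and from 3568 to 4791 and 3218 to 4648 between clones, all within 1.5 times of the values given. Loxl1 and Loxl2 rest on 2 to 167 counts a library, which limits their precision, and 3 technical replicates of 1 clone say nothing of other clones.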
